A study of Mus musculus with 6 samples.

Results

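The genes described here encode the collagen prolyl hydroxylases and the proteins that work with them in the endoplasmic reticulum (ER). They are the prolyl 3-hydroxylase family (P3h1, P3h2, P3h3, P3h4), the alpha subunits of prolyl 4-hydroxylase (P4ha1, P4ha2, P4ha3), the P3H1 partners Crtap and Ppib, and the collagen chaperone gene Serpinh1. Members were all probes whose RefSeq accession belonged to one of these 10 symbols, and no probe was left out for its level. The 10 symbols were listed with earlier results of these data known. This gave 13 probes for 10 genes, out of 26582 probes for 20145 genes that could be matched to a symbol. Of these genes, 7 had 1 probe, and P3h1, P4ha1 and P4ha3 had 2 each.

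Collagen chains are modified in the ER before they fold into a triple helix. Prolyl 4-hydroxylases, tetramers of alpha subunits and the disulfide isomerase P4HB, hydroxylate many prolines, and this keeps the helix stable at body temperature. Prolyl 3-hydroxylases act on few prolines. HSP47, the product of Serpinh1, binds the folded procollagen until it leaves the ER. Cartilage cells of the growth plate, the layer through which long bones lengthen, secrete large amounts of collagen and so depend on this machinery.

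The samples were tibial growth plates taken by laser microdissection from untreated male C57BL/6J mice aged 4 weeks. ATF6aKO mice are labelled as knockouts of ATF6a (gene Atf6), ATF6bKO mice as knockouts of ATF6b (gene Atf6b), and WT mice as wild type, with 2 arrays for each of the 3 genotypes. ATF6a and ATF6b are membrane-bound transcription factors of the ER that are cut free under ER stress, and the series asks what ATF6 does in long bone growth. The labels give neither the deleted part of each gene nor how the deletion was made, nor do they tie the 2 arrays of a genotype to different mice. Every p-value thus rests on array-to-array spread, and this may be technical only.

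Each value below is a normalised log2 intensity, so a difference of 1 is a doubling of signal. The 4 knockout arrays lay on 1 slide and the 2 WT arrays on another, read through a different channel, so slide and genotype cannot be told apart in any comparison with WT. Across probes, r was 0.970 to 0.988 between knockout arrays and 0.851 to 0.906 between knockout and WT arrays. The 2 knockouts share a slide. With 2 arrays per genotype, precision is limited by their number. Atf6 measured 7.07 and 6.97 in ATF6aKO, against 7.05 and 7.28 in WT (log2 difference -0.15, limma adjusted p = 0.498). Atf6b measured 8.77 and 8.41 in ATF6bKO, against 9.06 and 9.19 in WT (log2 difference -0.54, limma adjusted p = 0.0824). Where these probes lie relative to the deleted parts is not given, so they check nothing certain about the labels.

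Of 10 chondrocyte markers, 9 were well above background on all 6 arrays, and Sox9, the defining transcription factor, was so on 3. Their summed linear intensity, in units of 1000, was 88.4 and 106 on the ATF6aKO arrays, 57.7 and 25.4 on the ATF6bKO arrays, and 13.7 and 17.2 on the WT arrays. Summed cartilage signal was thus highest in ATF6aKO and lowest in WT, and lower in ATF6bKO replicate 2 than in ATF6bKO replicate 1. Single markers did not all keep this order. On the log2 scale Comp measured 12.87 and 13.27 in WT, above 12.51 and 11.38 in ATF6bKO. Chad measured 8.06 and 8.35 in WT, against 9.19 and 7.22 in ATF6bKO. Sox9 overlapped too, while the other markers were lower on both WT arrays than on every knockout array. Col2a1, Col9a1, Col10a1 and Col11a1 are also among the collagen genes described below. The 8 osteoblast and osteocyte markers on the array summed to 3.66 and 4.24 in ATF6aKO, again in linear units of 1000. They summed to 2.51 and 2 in ATF6bKO and to 92.7 and 2.44 in WT. WT replicate 1 stood apart in these, and also in 5 osteoclast markers, which summed to 0.585 to 0.667 on the knockout arrays, against 15.4 and 0.792 on the WT arrays. The red cell, endothelial and muscle lists were higher on both WT arrays, whereas the adipocyte list and the perichondrium and tendon list were not. The 3 macrophage markers on the array went the other way. They summed to 10.2 to 14.3 on the knockout arrays, against 8.58 and 8.36 on the WT arrays, although Adgre1 among them was higher on both WT arrays. The 4 red cell markers summed to 0.64 to 0.768 on the knockout arrays, against 30.3 and 5.11 on the WT arrays. The 5 endothelial markers summed to 1.32 to 1.59 on the knockout arrays, against 3.46 and 3.47 on the WT arrays, and the 5 muscle markers to 0.871 to 1.02, against 1.58 and 1.5. Calls of members against WT are also given without WT replicate 1, which leaves the red cell, endothelial and muscle signal of WT replicate 2 in place. In such bulk tissue fewer cells of a type and less RNA per cell cannot be told apart, and the part of tissue makeup in the differences below was not tested.

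All 10 genes were well above background on all 6 arrays through their brightest probe, which stands for the gene, and no member spot was saturated. Against WT, 3 members rose in ATF6aKO, namely P3h4, Serpinh1 and P4ha2, and 2 fell, P3h3 and P4ha3. The share called, 5 of 10, is near that of all 19122 genes tested, of which 42.7% passed (limma, adjusted p under 0.05), 20.3% higher and 22.3% lower. In ATF6bKO, P3h4 rose and P3h3 fell, 2 of 10 members, against 37.6% of all genes (17.3% higher and 20.3% lower). In each comparison with WT the arrays of the genotypes did not overlap for 5 members, beside 73.2% of all genes for ATF6aKO and 72.8% for ATF6bKO. The median log2 difference of the members was 0.19 in ATF6aKO and -0.34 in ATF6bKO, beside -0.03 and -0.05 over all genes. The ATF6aKO median was 0.58 without ATF6aKO replicate 1, -0.08 without ATF6aKO replicate 2 and -0.07 without WT replicate 2. The ATF6bKO median was -0.12 without ATF6bKO replicate 2 and -0.18 without WT replicate 1. In the authors' deposited table these medians were 1.32 and 1.25, beside 0.85 over all genes in both comparisons. Both comparisons share the WT arrays. Among all called genes, 47.6% were higher in ATF6aKO and 46.1% in ATF6bKO. These shares were 58.9% and 61.3% under 75th percentile scaling after background correction, and 70.9% and 70.4% in the authors' deposited table. With the same scaling of the scanner's processed signal, the ATF6aKO share was 50.5%.

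**Figure D1:**
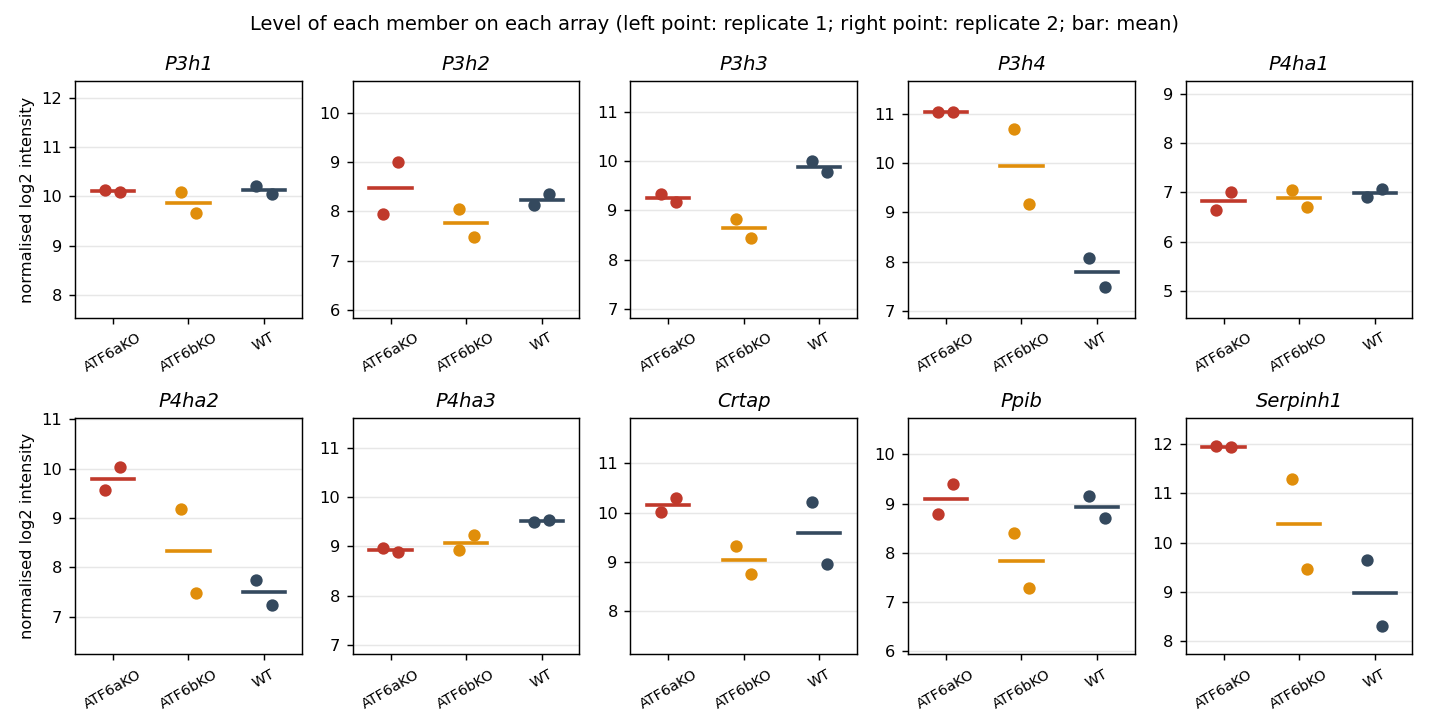
Normalised log2 intensity (vertical axis, every panel spanning the same range) of each of the 10 genes on each array, with ATF6aKO, ATF6bKO and WT from left to right; points are arrays and bars are means of 2. P3h4 and Serpinh1 lie highest in ATF6aKO with points that coincide, while their 2 ATF6bKO points lie far apart.

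Serpinh1 encodes HSP47, the chaperone that binds procollagen and little else. It measured 11.95 and 11.94 on the ATF6aKO arrays, 11.28 and 9.47 on the ATF6bKO arrays, and 9.65 and 8.31 on the WT arrays. Both ATF6aKO arrays lay above all others, whereas ATF6bKO replicate 2 lay between the WT arrays. Serpinh1 was 7.82-fold higher in ATF6aKO than in WT (log2 difference 2.97 ± 0.60, SE; limma adjusted p = 0.00689). Leaving out WT replicate 1 gave 3.64 and leaving out WT replicate 2 gave 2.30, and without ATF6aKO replicate 2 the call was lost (adjusted p = 0.0544). It was also lost with trended and robust variance (limma adjusted p = 0.0609). In ATF6bKO the log2 difference from WT was 1.39 ± 0.60, with a 95% interval of -0.00 to 2.79, and it did not pass (limma adjusted p = 0.104). That value depended on which array was left out. It was 2.30 without ATF6bKO replicate 2 (adjusted p = 0.0275), 0.49 without ATF6bKO replicate 1, 2.06 without WT replicate 1 (adjusted p = 0.0125) and 0.73 without WT replicate 2.

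P3h4, also known as Sc65, belongs to the 3-hydroxylase family by sequence but has no catalytic domain. In mice it forms an ER complex with P3H3, cyclophilin B and lysyl hydroxylase 1. P3h4 measured 11.03 and 11.03 in ATF6aKO, with 10.69 and 9.17 in ATF6bKO and with 8.07 and 7.49 in WT, so every knockout array lay above both WT arrays. It was 9.49-fold higher in ATF6aKO (log2 difference 3.25 ± 0.45, SE; limma adjusted p = 0.00173) and 4.43-fold higher in ATF6bKO (2.15 ± 0.45, SE; limma adjusted p = 0.00894). Both calls were kept when any 1 array was left out. The ATF6aKO difference was then 2.96 to 3.54, and 3.54 without WT replicate 1. The ATF6bKO difference was 1.38 without ATF6bKO replicate 1, 2.91 without ATF6bKO replicate 2 and 2.44 without WT replicate 1. In the authors' deposited table the differences were 1.52 and 0.65, and neither passed.

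P3h3, the enzyme of the same complex, went the other way. It measured 9.32 and 9.16 on the ATF6aKO arrays, 8.82 and 8.44 on the ATF6bKO arrays, and 10 and 9.77 on the WT arrays, and no array of one genotype overlapped those of another. P3h3 was 1.56-fold lower in ATF6aKO than in WT (log2 difference -0.65 ± 0.19, SE; limma adjusted p = 0.0306) and 2.39-fold lower in ATF6bKO (-1.26 ± 0.19, SE; limma adjusted p = 0.00297). The ATF6bKO call was kept whichever array was left out, at -1.45 to -1.07 when that array was of ATF6bKO or WT. The ATF6aKO call was lost without ATF6aKO replicate 1 (adjusted p = 0.0619), ATF6aKO replicate 2 (0.135) or WT replicate 1 (0.0978). In the authors' deposited table neither P3h3 difference passed (-1.40 and -0.30). Plod1, which encodes the lysyl hydroxylase of this complex, did not pass against WT in either knockout (limma adjusted p = 0.746 in ATF6aKO and 0.248 in ATF6bKO).

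P3H1 is the catalytic member of the best known 3-hydroxylation complex, with CRTAP as its helper and cyclophilin B, the Ppib product, as its prolyl isomerase. Loss of any of the 3 causes recessive brittle bone disease in humans. P3h1 was among the members that varied least, at 10.13 and 10.08 in ATF6aKO, with 10.08 and 9.66 in ATF6bKO and with 10.21 and 10.04 in WT. The knockout and WT values overlapped, and neither difference passed (-0.02 ± 0.19 in ATF6aKO, limma adjusted p = 0.934, and -0.25 ± 0.19 in ATF6bKO, limma adjusted p = 0.323). The 95% intervals ran from -0.46 to 0.42 and from -0.70 to 0.19. Its dimmer probe measured between 6.80 and 7.70 and gave -0.35 in both comparisons, which did not pass either.

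Crtap measured 10.02 and 10.30 on the ATF6aKO arrays, 9.33 and 8.75 on the ATF6bKO arrays, and 10.22 and 8.96 on the WT arrays. The 2 WT arrays were so far apart that both knockouts overlapped with them. Neither difference from WT passed (0.57 ± 0.40 in ATF6aKO, limma adjusted p = 0.275, and -0.55 ± 0.40 in ATF6bKO, limma adjusted p = 0.307). Without WT replicate 1 the ATF6aKO difference was 1.20 and passed (limma adjusted p = 0.00594), and without WT replicate 2 it was -0.07. For ATF6bKO the difference became 0.08 when WT replicate 1 was left out, and -1.18 without WT replicate 2, which passed (limma adjusted p = 0.00868).

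Ppib measured 8.78 and 9.39 in ATF6aKO, with 8.40 and 7.29 in ATF6bKO and with 9.16 and 8.71 in WT. Both ATF6bKO arrays lay below all others, yet the difference from WT did not pass (log2 difference -1.08 ± 0.38, SE; limma adjusted p = 0.0565). It passed without ATF6bKO replicate 1 (-1.64, adjusted p = 0.0273) and without WT replicate 2 (-1.31, adjusted p = 0.0295). In ATF6aKO the difference from WT was 0.15 ± 0.38 (limma adjusted p = 0.763). In the gene table the Ppib locus overlaps Snx22 and the Crtap locus overlaps the long noncoding RNA gene 4930520O04Rik. Whether the probes lie in the shared stretches was not tested.

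P3h2 encodes a 3-hydroxylase that acts mainly on basement membrane collagen. It measured 7.95 and 9.0 on the ATF6aKO arrays, 8.05 and 7.49 on the ATF6bKO arrays, and 8.13 and 8.35 on the WT arrays. The ATF6aKO arrays lay on either side of WT and both ATF6bKO arrays lay below it, and no difference from WT passed (0.23 ± 0.35 in ATF6aKO, limma adjusted p = 0.611, and -0.47 ± 0.35 in ATF6bKO, limma adjusted p = 0.318).

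Of the 3 alpha subunits of prolyl 4-hydroxylase, P4ha2 rose and P4ha3 fell in ATF6aKO, and P4ha1 did not pass. P4HA2 is the main alpha subunit of chondrocytes. Its gene measured 9.57 and 10.03 in ATF6aKO, with 9.18 and 7.48 in ATF6bKO and with 7.75 and 7.24 in WT. P4ha2 rose 4.93-fold in ATF6aKO (log2 difference 2.30 ± 0.50, SE; limma adjusted p = 0.00898), 2.56 on the log2 scale without WT replicate 1, and the call was lost without ATF6aKO replicate 2 (adjusted p = 0.076) and with trended and robust variance (adjusted p = 0.0502). In ATF6bKO only replicate 1 lay above both WT arrays. The difference of 0.83 ± 0.50 did not pass (limma adjusted p = 0.223), and it was 1.68 without ATF6bKO replicate 2 (adjusted p = 0.0198) and -0.02 without ATF6bKO replicate 1.

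P4HA1 is the main alpha subunit of most other cell types. P4ha1 varied little, at 6.64 and 7.01 on the ATF6aKO arrays, 7.04 and 6.71 on the ATF6bKO arrays, and 6.90 and 7.07 on the WT arrays. The 3 genotypes overlapped. The differences from WT were -0.16 ± 0.20 in ATF6aKO (95% interval -0.63 to 0.31, limma adjusted p = 0.544) and -0.11 ± 0.20 in ATF6bKO (-0.58 to 0.36, limma adjusted p = 0.691). Their sign turned under 75th percentile scaling after background correction, at 0.08 and 0.21. The second P4ha1 probe was well above background on 3 of 6 arrays, on none of ATF6aKO. It measured 6.28 and 6.37 in ATF6aKO, against 6.40 and 6.70 in WT. Its bound for a dim probe, 1.17-fold brighter in WT, is no more than the measured difference (-0.22 ± 0.20, SE; limma adjusted p = 0.404, not passed). A true difference of that size is thus not established.

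P4HA3 is an alpha subunit found at low levels in many tissues. P4ha3 measured 8.96 and 8.89 in ATF6aKO, with 8.93 and 9.23 in ATF6bKO and with 9.50 and 9.53 in WT, so both WT arrays lay above all knockout arrays. It was 1.51-fold lower in ATF6aKO (log2 difference -0.59 ± 0.17, SE; limma adjusted p = 0.0259), a call lost on leaving out any 1 of the ATF6aKO or WT arrays (adjusted p of 0.0527 to 0.0984, and 0.0527 without WT replicate 1). In ATF6bKO the difference was -0.44 ± 0.17 and did not pass (limma adjusted p = 0.0788). The second P4ha3 probe measured 8.90 and 8.65 on the ATF6aKO arrays, 8.55 and 8.95 on the ATF6bKO arrays, and 9.41 and 9.70 on the WT arrays. It also had both WT arrays above all knockout arrays, and it was lower in both knockouts (-0.77, limma adjusted p = 0.0205, and -0.80, limma adjusted p = 0.0203, when each probe was tested on its own).

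**Figure D2:**
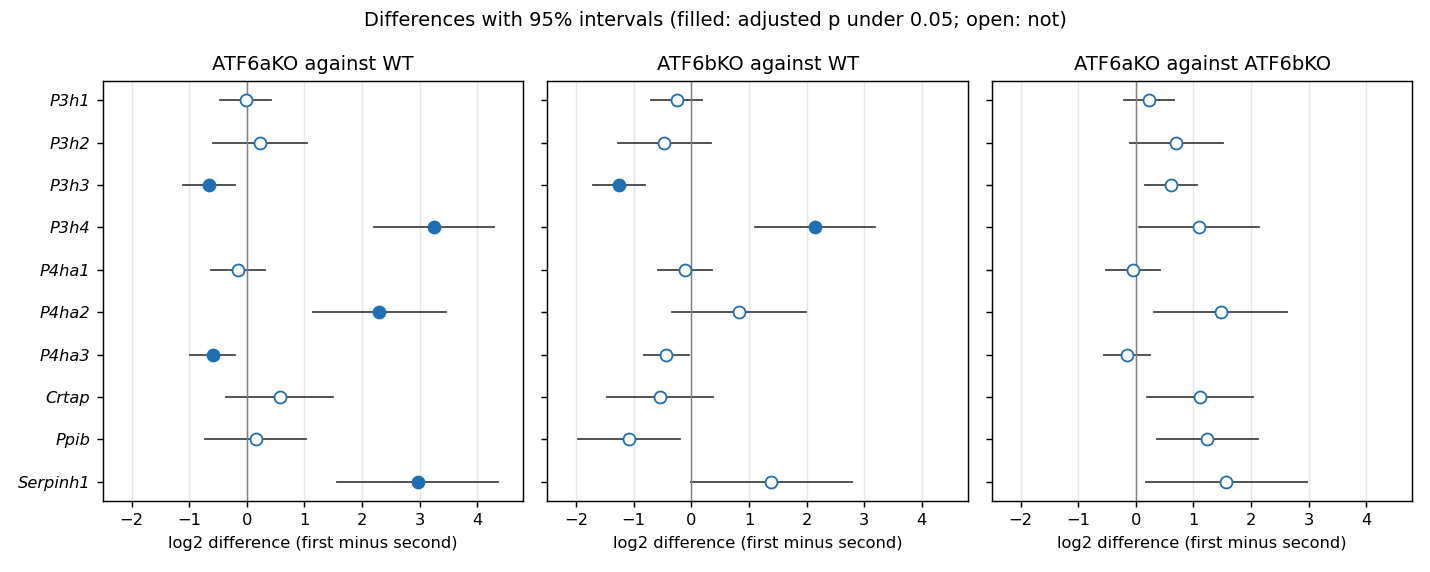
Log2 difference of each gene in the 3 comparisons (horizontal axis, the genotype named first minus the second); lines are 95% intervals and filled points passed an adjusted p of 0.05. P3h4, Serpinh1 and P4ha2 lie far to the right in ATF6aKO against WT, P3h3 lies left of 0 in both comparisons with WT, and no point is filled in ATF6aKO against ATF6bKO.

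Leaving out 1 array at a time moved the members unevenly. The counts in this paragraph are of members only, and those over all genes are given as ranges in the section on processing. With no matching share of all genes beside them, they are not read as a result about the members as a group. Without ATF6aKO replicate 2 only P3h4 passed in ATF6aKO against WT, and without ATF6aKO replicate 1 P3h4, Serpinh1 and P4ha2 did. Without WT replicate 1, which had the highest bone and osteoclast marker sums, 4 members were higher in ATF6aKO than in WT (P3h4, Serpinh1, P4ha2 and Crtap) and the other 6 did not pass. In ATF6bKO against WT, 4 members passed without ATF6bKO replicate 2, namely P3h4, Serpinh1 and P4ha2 higher and P3h3 lower. Without WT replicate 2 also 4 passed, with P3h4 higher and P3h3, Crtap and Ppib lower. Without WT replicate 1, 3 passed, with P3h4 and Serpinh1 higher and P3h3 lower, and without ATF6bKO replicate 1 these were P3h4, P3h3 and Ppib.

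**Figure D3:**
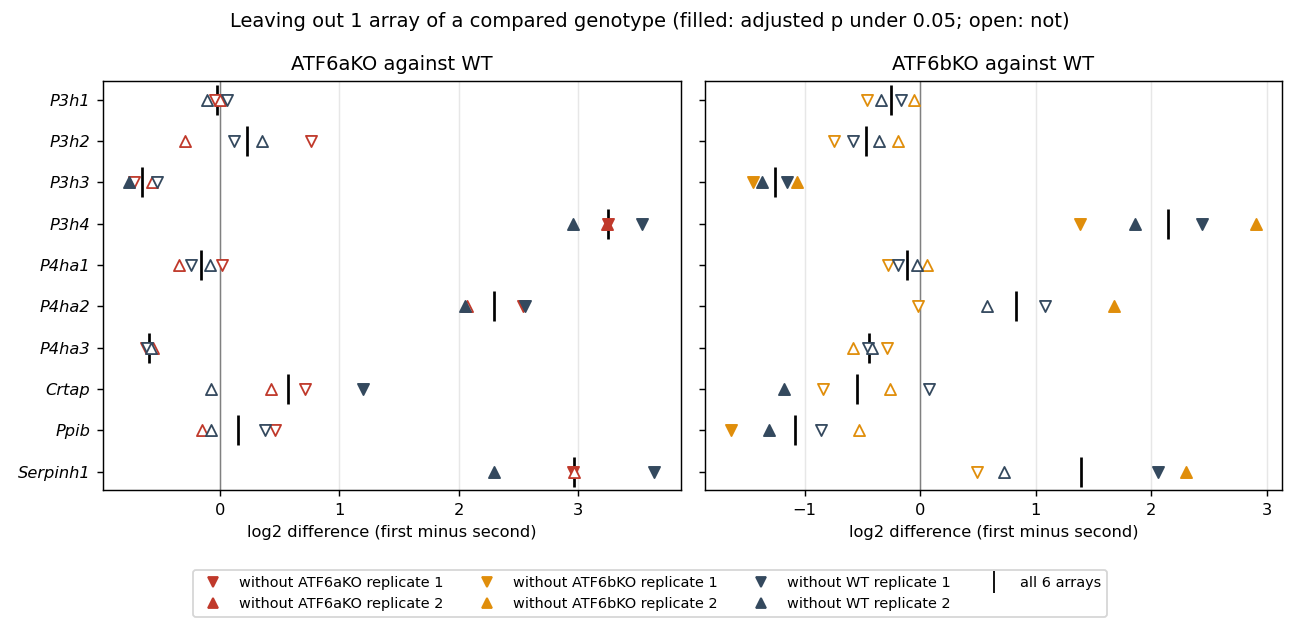
Log2 difference from WT of each gene with all 6 arrays (black bars) and after leaving out 1 array of a compared genotype (triangles, coloured by the genotype of the array left out; filled triangles passed an adjusted p of 0.05). P3h4 stays filled throughout in both panels and P3h3 in the ATF6bKO panel, whereas the Serpinh1, P4ha2, Crtap and Ppib triangles spread widely in ATF6bKO.

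The comparison within 1 slide set ATF6aKO against ATF6bKO. No member passed, and none of the 19122 genes did (limma, 0% called). Unadjusted p was under 0.05 in 6 members, all higher in ATF6aKO, against 6.11% of all genes, and 5.09% of all genes were higher in ATF6aKO at that level. The 6 were Serpinh1, P4ha2, Ppib, Crtap, P3h4 and P3h3. For 7 members both ATF6aKO arrays lay above both ATF6bKO arrays, P3h1 being the seventh, whereas 20.1% of all genes had that order. The members were chosen with earlier results of these data known, so these shares are not a test of the members as a group. The median log2 difference of the 10 members was 0.90, beside -0.00 over all genes. It was 0.42 without ATF6bKO replicate 2 and 1.20 without ATF6bKO replicate 1. Its sign turned in the authors' deposited table, where it was -0.25.

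Serpinh1 had the largest of these differences among the members, 1.57 ± 0.60 on the log2 scale (95% interval 0.18 to 2.97; limma adjusted p = 0.749). P4ha2 followed at 1.47 ± 0.50, Ppib at 1.24 ± 0.38, Crtap at 1.12 ± 0.40 and P3h4 at 1.1 ± 0.45, with limma adjusted p of 0.669 to 0.785. P3h3 differed by 0.61 ± 0.19 (95% interval 0.16 to 1.06; limma adjusted p = 0.669), being lower than WT in both knockouts and lowest in ATF6bKO. P3h2 differed by 0.70 and P3h1 by 0.23, while P4ha1 (-0.05) and P4ha3 (-0.16) were the members with a slightly lower mean in ATF6aKO. The sizes rested much on 1 array. Without ATF6bKO replicate 2 the difference was 0.67 for Serpinh1, 0.62 for P4ha2 and 0.34 for P3h4, and without ATF6bKO replicate 1 it was 2.48, 2.32 and 1.86. No member passed when any 1 array was left out.

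ATF6bKO replicate 2 was the lowest of the 4 knockout arrays for 8 members, and for 27.4% of all genes. ATF6bKO replicate 1 exceeded replicate 2 for 9 members, and for 50.7% of all genes, with a median log2 difference of 0.57 against 0.00 over all genes. The gap was 1.80 for Serpinh1, 1.70 for P4ha2, 1.53 for P3h4 and 1.11 for Ppib, while P4ha3 went the other way (-0.30). In WT, replicate 1 exceeded replicate 2 for 7 members, against 37.5% of all genes, and the gap was 1.34 for Serpinh1 and 1.27 for Crtap. In ATF6aKO the corresponding gap was 0.01 for Serpinh1, -0.01 for P3h4 and -1.05 for P3h2. The chondrocyte marker list moved with these gaps in ATF6bKO (57.7 and 25.4 in units of 1000, replicates 1 and 2), but not in WT, where it was lower in replicate 1 (13.7 and 17.2). The bone markers (92.7 and 2.44) and the osteoclast markers (15.4 and 0.792) were higher in WT replicate 1 than in WT replicate 2, the same direction as the Serpinh1 and Crtap gaps in WT. The part of these marker lists in the members' levels was not tested.

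**Figure D4:**
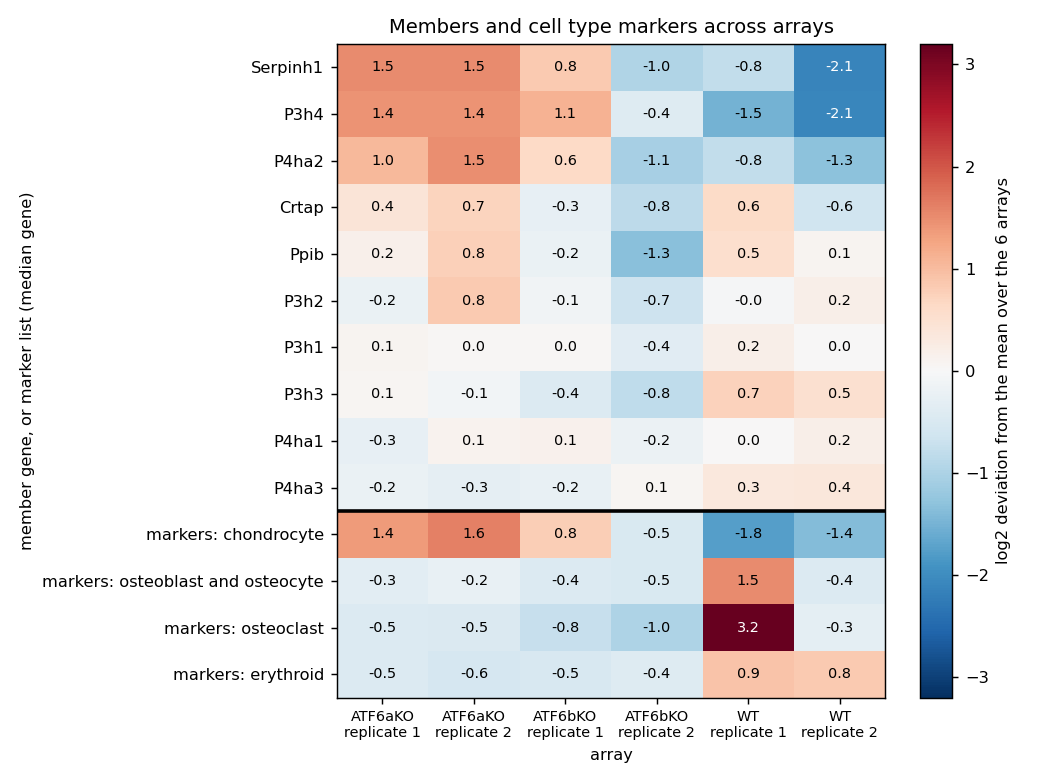
Deviation of each gene, and of the median gene of 4 marker lists, from its mean over the 6 arrays (colour and printed number, log2 units), with arrays from left to right as ATF6aKO, ATF6bKO and WT. Serpinh1, P3h4, P4ha2 and the chondrocyte markers are high in ATF6aKO and ATF6bKO replicate 1 and low in ATF6bKO replicate 2 and WT, while the bone and osteoclast markers are highest in WT replicate 1 and the red cell markers are high on both WT arrays (0.92 and 0.85).

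The next question was whether upstream sequences of the members hold the elements that ATF6 is known to bind. RefSeq promoter windows (assembly GRCm38.p6, 250 bases before to 50 after the start) were available for 8 of the 10 genes, P3h2 and P3h4 being the exceptions, and P3h1 had 2 starts, which made 9 windows. The ER stress response element ERSE (CCAAT, 9 bases of any kind, CCACG) was looked for on both strands, as were ERSE-II (ATTGG, any base, CCACG) and the ATF6 site TGACGTGG. Their letters were found in none of the 9 windows, and in 0.119%, 0.0365% and 0.676% of all 32851 windows. The shorter element CCACG, which lies within ERSE and ERSE-II and, read on the other strand, within TGACGTGG, was found in P3h1, P4ha1, P4ha2, Crtap, Ppib and Serpinh1. That is 7 of 9 windows, against 32.8% of all windows, and the members' windows were richer in G and C (median 62.3%, against 52.7%). P3h3 and P4ha3, the 2 members that fell in ATF6aKO, had no CCACG in their windows. P3h1, P4ha1, Crtap and Ppib, which did not pass in ATF6aKO against WT, all had CCACG, with 3 matches in P4ha1. Any link between these letters and the differences was not tested. A match is only a description of letters.

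The Serpinh1 and P4ha2 stretches are printed because these genes rose in ATF6aKO, and P4ha1 as the alpha subunit that did not pass. Each is the 250 bases before the start, 5′ to 3′ on the strand of the gene, with CCACG or its reverse complement CGTGG in capitals. They lie at chr7:99353240-99353489 (minus strand), chr11:54100674-54100923 (plus strand) and chr10:59323046-59323295 (plus strand). For contrast, the last line is the full ERSE of Hspa5, the gene of the ER chaperone BiP and a classical ATF6 target, at chr2:34772025-34772043 (plus strand), with its CCAAT and CCACG in capitals.
Serpinh1: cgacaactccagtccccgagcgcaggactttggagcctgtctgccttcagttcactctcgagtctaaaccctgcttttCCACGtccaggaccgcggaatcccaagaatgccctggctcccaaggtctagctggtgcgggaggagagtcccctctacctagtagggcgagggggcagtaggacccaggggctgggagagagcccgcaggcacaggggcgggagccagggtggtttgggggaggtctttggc
P4ha2: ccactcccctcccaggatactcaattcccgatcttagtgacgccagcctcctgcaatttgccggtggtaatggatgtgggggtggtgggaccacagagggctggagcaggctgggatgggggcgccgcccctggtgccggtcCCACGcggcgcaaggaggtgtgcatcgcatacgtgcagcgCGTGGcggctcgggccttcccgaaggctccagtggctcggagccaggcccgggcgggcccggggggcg
P4ha1: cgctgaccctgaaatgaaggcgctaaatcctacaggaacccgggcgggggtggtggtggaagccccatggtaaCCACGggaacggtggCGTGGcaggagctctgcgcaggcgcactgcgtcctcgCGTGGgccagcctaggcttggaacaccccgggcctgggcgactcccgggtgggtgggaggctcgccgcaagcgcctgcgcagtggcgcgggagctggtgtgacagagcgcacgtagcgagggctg
Hspa5: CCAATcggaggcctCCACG

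Serpinh1 and P4ha2 hold 1 and 2 matches in these stretches and P4ha1 holds 3. Protein sequences were not used here.

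Other genes of collagen folding, modification and export were taken as a list of 22 partners. In ATF6aKO against WT, 7 of the 22 rose and 2 fell, a share near the 42.7% of all genes called, and the median log2 difference was 0.61 beside -0.03 over all genes. Fkbp10, the neighbour of P3h4 in the gene table, encodes the ER prolyl isomerase FKBP65. It measured 11.12 and 11.10 in ATF6aKO, with 10.85 and 9.38 in ATF6bKO and with 8.32 and 7.68 in WT, the same order of genotypes, and of the ATF6bKO and WT replicates, as P3h4. Fkbp10 was higher in ATF6aKO by 3.11 ± 0.44 and in ATF6bKO by 2.11 ± 0.44 on the log2 scale (limma adjusted p = 0.00188 and 0.00894), and the second difference was 1.38 without ATF6bKO replicate 1 and 2.85 without ATF6bKO replicate 2. Pdia3, a disulfide isomerase, was 6.75-fold higher in ATF6aKO (limma adjusted p = 0.00414), a log2 difference of 2.76 that became 3.45 when WT replicate 1 was left out, and 2.06 without WT replicate 2.

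Creb3l1 encodes OASIS, an ER-bound transcription factor that drives type I collagen in osteoblasts. It fell in both knockouts, 3.01-fold in ATF6aKO (limma adjusted p = 0.00114) and 3.16-fold in ATF6bKO (limma adjusted p = 0.00121). In ATF6bKO against WT 2 of the 22 partners rose and 3 fell, beside 37.6% of all genes called, with a median log2 difference of 0.07. Plod3, a lysyl hydroxylase that also adds sugars to collagen, was 4.48-fold lower in ATF6bKO (limma adjusted p = 0.00645), and its log2 difference of -2.16 became -1.53 when WT replicate 1 was left out, and -2.80 without WT replicate 2. More partners were called in ATF6aKO against WT without WT replicate 1, and fewer without ATF6aKO replicate 2. Fewer were called in ATF6bKO against WT when either ATF6aKO array was left out. Over all genes, fewer were called in both comparisons whenever an array was left out. With no matching share of all genes beside them, these changes are not read as a result about the partners.

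P4hb encodes the beta subunit shared by all 4-hydroxylase tetramers. It measured 10.47 and 10.98 on the ATF6aKO arrays, 10.05 and 8.47 on the ATF6bKO arrays, and 11.16 and 8.85 on the WT arrays, and neither difference passed (0.72 and -0.74; limma adjusted p = 0.463 and 0.464). Both ATF6aKO arrays lay between the WT arrays. In ATF6aKO against ATF6bKO the P4hb difference was 1.47, as it was for P4ha2, and neither passed (limma adjusted p = 0.872 for P4hb and 0.696 for P4ha2). P4hb was named after its values were seen. In ATF6aKO against ATF6bKO no partner passed and the median was 0.62. Canx (1.34), Calr (1.14) and Colgalt1 (0.69) had the smallest p there, all higher in ATF6aKO, and they were 0.97, 0.79 and 0.40 without ATF6bKO replicate 2. The first 2 encode lectin chaperones of the ER, and Colgalt1 encodes a collagen galactosyltransferase.

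The substrates of these enzymes were followed through 17 collagen genes. In ATF6aKO against WT 8 of the 17 rose and 2 fell, beside 42.7% of all genes called, with a median log2 difference of 0.14. Col2a1, the main collagen of cartilage, measured 15.06 and 15.36 in ATF6aKO, with 14.51 and 13.25 in ATF6bKO and with 10.88 and 11.15 in WT. Col2a1 was thus 18.3-fold higher in ATF6aKO (limma adjusted p = 6.22e-04) and 7.26-fold higher in ATF6bKO (limma adjusted p = 0.00177), the second log2 difference of 2.86 being 2.23 without ATF6bKO replicate 1 and 3.49 without ATF6bKO replicate 2. Col9a2 rose 12.8-fold and Col11a1 13.3-fold in ATF6aKO, with Col9a1 4.90-fold higher and Col11a2 2.92-fold lower in ATF6bKO. The Col9a1 log2 difference of 2.29 became 1.58 when its probes were averaged, and it still passed (limma adjusted p = 0.00913). Col1a2, a chain of the main bone collagen named here after its values were seen, measured 11.08 and 11.46 in ATF6aKO, 9.89 and 9.53 in ATF6bKO, but 16.02 and 8.62 in WT, the widest split of WT arrays among the genes named here. In ATF6bKO 5 collagen genes rose and 3 fell (median 0.05), beside 37.6% of all genes called. Fewer collagen genes were called in ATF6aKO against WT without ATF6aKO replicate 2, and so were fewer of all genes. This is not read as a result about the collagen genes. In ATF6aKO against ATF6bKO the median was 0.86 and none passed, with Col9a2 (1.80), Col9a3 (1.40) and Col2a1 (1.33) having the smallest p. These were 1.37, 0.80 and 0.70 without ATF6bKO replicate 2, and 2.23, 1.99 and 1.96 without ATF6bKO replicate 1.

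Prolyl hydroxylases that act on proteins other than collagen served as a contrast, together with 2 hypoxia factors they regulate. Hif1a had no value, so 5 of 6 genes were measured. Epas1, which encodes HIF-2α, was 4.53-fold lower in ATF6aKO and 5.01-fold lower in ATF6bKO than in WT (limma adjusted p = 5.88e-04 and 6.36e-04). Those log2 differences of -2.18 and -2.32 became -0.70 and -0.97 when the kept probes of Epas1 were averaged, and both still passed (limma adjusted p = 0.0156 and 0.00563). P4htm, a transmembrane prolyl 4-hydroxylase, was also lower in both knockouts (-1.32 and -1.06 on the log2 scale), the ATF6bKO call being lost without ATF6bKO replicate 2 (adjusted p = 0.063). Egln3, an oxygen sensor, was higher in both (0.74 and 0.90), the ATF6aKO call being lost without ATF6aKO replicate 2 (adjusted p = 0.0521) and both calls when the probes of the gene were averaged (0.12 and 0.22). The median of the list was -0.36 in ATF6aKO, -0.25 in ATF6bKO, and -0.11 for ATF6aKO against ATF6bKO, where P4htm had -0.26, Egln3 -0.16 and Epas1 0.14.

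**Figure D5:**
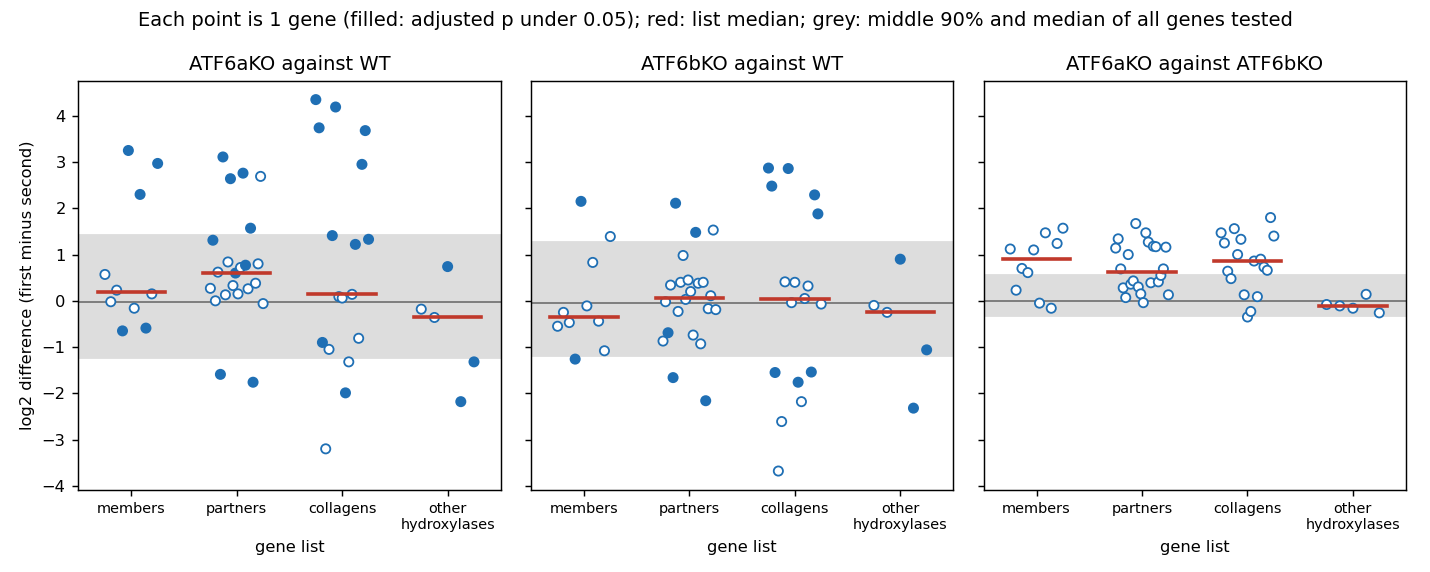
Log2 difference (vertical axis, the genotype named first minus the second) of every gene of 4 lists in the 3 comparisons; points are genes, filled where the adjusted p was under 0.05, red bars are list medians, and the grey band holds the middle 90% of all genes tested. In ATF6aKO against ATF6bKO the medians of the members (0.90), partners (0.62) and collagens (0.86) lie above that of all genes, with no point filled.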

How the data were processed

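Growth plate RNA of 6 samples was amplified, labelled with Cy5 as cDNA and hybridised to an Agilent mouse array, per the labels' protocols. The deposited scanner files hold spot intensity values, and the submitters' processing notes name Agilent Feature Extraction (10.7.1.1). The red channel was used for knockout arrays and the only channel, green, for WT arrays, per the file headers. The protocols name Cy5 for all 6 samples, and why the WT files hold green only was not tested. Depth here is signal over background. Between 86.9% and 96.7% of spots lay well above background, with a median spot intensity of 146 to 259.5 over a background of 37 (knockouts) or 17 (WT).

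Median intensities were background-corrected (normexp, offset 50), taken to log2 and quantile normalised after control and outlier spots were left out (limma 3.58.1, R 4.3.3). The deposited files give medians, so these replaced the mean spot intensity. Probes were named by RefSeq accession. A probe was kept if well above background on both arrays of a genotype, the brightest standing for its gene. All 6 arrays entered 1 limma fit over 19122 genes, with Benjamini-Hochberg adjustment at 0.05. A genotype left with 1 array is assumed to vary like the others. A bound for a dim probe sets the brighter group's mean against whichever is higher of the dim probe's signal and the faintest signal called well above background. The authors' deposited value table holds log2 values that follow the green channel (r of at least 0.9989 between arrays) and not the red one of the knockouts (0.0392 to 0.0878). Its centring is unknown, its column medians are 0.2 and 0.1 (ATF6aKO), 0 and 0.221 (ATF6bKO) and -0.5 and -0.5 (WT), and it served as an alternative. All members and, per list and comparison, up to 3 genes of smallest p were named. Plod1, P4hb and Col1a2 were given with values outside this rule. Members and lists were chosen with earlier results of these data known. The procedure was tested on simulated data.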

Additional observations from a re-analysis of the deposited data

How the results depend on the processing

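Each of the 30 member differences (10 genes, 3 comparisons) was recomputed under 17 alternatives, 6 of which left out 1 array. Of the 510 values, 452 kept their direction and their side of the threshold, 15 lost and 15 gained a call, and 25 differences that passed in neither fit changed sign. All 3 sign changes that involved a call came from the authors' deposited table in ATF6bKO against WT (P4ha1 1.84, Crtap 2.25, Ppib 4.00), whose knockout columns follow the green channel. Among other named genes that table turned Col2a1 (-0.45) and Col9a2 (-0.20) in ATF6aKO against WT, and Plod3 (0.65), Col2a1 (-0.95) and Col9a1 (-1.70) in ATF6bKO against WT. It called 6 members in ATF6bKO against WT. With trended and robust variance 3 members passed in ATF6aKO against WT, since P4ha2 (adjusted p = 0.0502) and Serpinh1 (0.0609) were lost; the cause was not tested. With unnamed probes in the fit, which adds features, 22931 and 20450 features passed against WT in ATF6aKO and ATF6bKO. Leaving out each array gave 4682 to 8061 genes and 1 to 5 members in ATF6aKO against WT, 3080 to 7019 genes and 2 to 4 members in ATF6bKO against WT, and 0 to 8 genes (8 without ATF6aKO replicate 2, all lower) and 0 members in ATF6aKO against ATF6bKO. Under 75th percentile scaling after normexp the median of all genes was 0.13 in ATF6aKO and 0.16 in ATF6bKO, against -0.03 and -0.05, with 5163 higher and 3601 lower, and 4828 higher and 3053 lower. It was 0.85 in both in the authors' deposited table (6893 higher and 2824 lower, and 6964 higher and 2930 lower). Deviations of same-numbered arrays correlated at r = -0.156 (ATF6aKO and ATF6bKO), -0.074 (ATF6aKO and WT) and 0.197 (ATF6bKO and WT). Since not every pair was above 0.1, the replicate number was taken only as a name. With it as a replicate block 7594, 6630 and 0 genes and 5, 3 and 0 members passed, the added member being Serpinh1 in ATF6bKO against WT (adjusted p = 0.0373). With 2 arrays a genotype the 95% intervals of the members mark what could be resolved, and slide and genotype cannot be told apart against WT.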

Other observations

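On the knockout arrays the green channel, which carries no label of these samples, held a processed signal of 1, the floor set here, to 33.4 for the member probes other than those of Serpinh1 and Ppib. The Serpinh1 green signal was 248 and 160 in ATF6aKO and 290 and 135 in ATF6bKO, against 1230 and 342 in WT, where this is the only channel. That of Ppib was 42.1 and 37.6 in ATF6aKO and 72.6 and 45.4 in ATF6bKO. In the authors' deposited table Serpinh1 stood at 1.90 and 1.2 on the ATF6aKO arrays, 1.90 and 1.2 on the ATF6bKO arrays, and -3.60 and -5.10 on the WT arrays.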
